A study of Mus musculus with 6 samples.

Results

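Transcripts of 9 genes were followed in mouse primary uterine stromal cells. They comprise the hedgehog receptors and coreceptors Ptch1, Smo, Boc and Gas1, the decoy receptor Hhip, the transcription factors Gli1, Gli2 and Gli3, and Nr2f2, a nuclear receptor of the uterine stroma. They were taken by gene symbol from a list and are 9 of the 54232 genes counted. The cells came from D4 uteri (pseudopregnant day 4) of mice aged 8 to 12 weeks and formed 2 groups of 3 RNA-Seq libraries. In Pbrm1 cKO mice, Pbrm1 fl/fl alleles, which encode a subunit of a SWI/SNF chromatin remodeler, were recombined by a PR-IRES-cre allele. Cre was therefore driven by the progesterone receptor gene, which is active in several uterine cell types. The labels call the control group WT, whereas the study describes its controls as Pbrm1 fl/fl mice without Cre. Each preparation pooled the uterine horns of several mice, and the cells of both groups were plated for hours in medium with serum, charcoal-stripped at first, before RNA was taken.

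Hedgehog ligands bind PTCH1 and so release the transducer SMO, which then turns the GLI proteins toward activation of their targets. Gli1, Ptch1 and Hhip are themselves targets of the GLI proteins, and their transcripts are widely used as a readout of the pathway. In the uterus, progesterone induces Indian hedgehog (Ihh) in the epithelium, which signals to the stroma beneath, where Nr2f2 (COUP-TFII) acts downstream and Bmp2 and Wnt4 act during decidualization.

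RefSeq promoter windows were matched for 7 of the 9 genes (all but Gli1 and Boc). The windows of the genes whose transcripts rose (Ptch1, Hhip), fell (Smo) or showed the smallest difference (Nr2f2) are shown, a choice made by the values of the genes. Each runs 5′ to 3′ on the strand of the gene in GRCm38.p6 and ends at the annotated start of the transcript, which is the capital letter.
Ptch1, chr13:63565735-63565985, minus strand: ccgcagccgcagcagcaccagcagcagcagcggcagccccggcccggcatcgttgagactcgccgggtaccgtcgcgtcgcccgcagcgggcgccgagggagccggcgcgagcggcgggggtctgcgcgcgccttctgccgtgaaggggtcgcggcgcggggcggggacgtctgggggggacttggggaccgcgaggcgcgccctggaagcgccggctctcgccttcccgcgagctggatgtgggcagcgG
Hhip, chr8:80058008-80058258, minus strand: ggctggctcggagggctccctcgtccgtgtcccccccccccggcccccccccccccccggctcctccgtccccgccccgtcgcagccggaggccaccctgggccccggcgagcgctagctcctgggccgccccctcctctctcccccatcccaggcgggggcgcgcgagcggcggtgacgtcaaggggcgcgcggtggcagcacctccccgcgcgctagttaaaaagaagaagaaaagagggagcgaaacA
Smo, chr6:29735247-29735497, plus strand: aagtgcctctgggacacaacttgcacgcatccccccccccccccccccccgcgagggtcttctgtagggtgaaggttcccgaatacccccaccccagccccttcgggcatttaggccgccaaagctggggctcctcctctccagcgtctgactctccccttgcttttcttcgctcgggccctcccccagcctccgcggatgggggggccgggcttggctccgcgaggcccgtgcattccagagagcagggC
Nr2f2, chr7:70366746-70366996, minus strand: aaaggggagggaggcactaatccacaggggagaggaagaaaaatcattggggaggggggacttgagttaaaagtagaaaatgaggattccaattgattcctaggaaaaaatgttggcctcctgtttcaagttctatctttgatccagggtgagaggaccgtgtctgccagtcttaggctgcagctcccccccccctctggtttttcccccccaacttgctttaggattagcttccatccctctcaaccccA
The Ptch1 start used by RefSeq lies 7863 bases inside the gene as counted, and those of Hhip, Smo and Nr2f2 lie 2, 6 and 11 bases outside it. Over 250 bases before and 50 after the start, GC content was 76.3% for Ptch1, 73.7% for Hhip and 67.7% for Smo, and for the uncalled Gas1, Gli2 and Gli3 it was 62.3%, 67.3% and 71.0%, all above the upper quartile of 61.7% over 32851 windows. The Nr2f2 window stood apart with 49.7% GC, below the median of 52.7%, and it held 2 CpG dinucleotides against 47 in that of Ptch1. On either strand, none of the 7 windows held the GLI consensus GACCACCCA, which 0.253% of all windows hold, or its core CCACCCA, which lies within the consensus and which 9.3% hold. The nuclear receptor half-site AGGTCA, held by 16.3% of all windows, was not among their letters either.

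The libraries held 13253575 to 18338667 counts in genes. Pbrm1, the deleted gene, stood at 1354, 1385 and 1677 normalized counts (counts divided by the size factor of the library) in WT and at 396.6, 458.6 and 451.3 in Pbrm1 cKO. Its log2 fold change was -1.76 ± 0.13 (SE, n = 3 per group, DESeq2 adjusted p = 5.19e-40). The stromal markers Vim, Pdgfra and Col1a1 were high in every library, and 14 stromal markers summed to 3678 to 4305 TPM (transcripts per length, scaled to the same sum in each library) in WT and to 3549 to 4120 TPM in Pbrm1 cKO, while 5 of the 14 were called lower (Vim, Col1a1, Col1a2, Thy1 and Hoxa11) and 2 higher (Pdgfra and Fbln1). Other cell types were also seen. The 12 leukocyte markers summed to 535 to 1150 TPM in WT and to 5676 to 5764 TPM in Pbrm1 cKO, all 12 without overlap, and 10 of 11 tested were called higher. The 15 epithelial markers summed to 217 to 338 TPM in WT and to 410 to 422 TPM in Pbrm1 cKO, with Foxa2 at or near 0, and 5 of 14 tested were called higher. The 10 endothelial markers summed to 74.0, 193 and 173 TPM in WT and to 67.6 to 76.8 TPM in Pbrm1 cKO, with 3 called lower and 1 higher. Mesothelial markers summed to 17.7 to 18.3 TPM in WT and to 34.1 to 39.9 TPM in Pbrm1 cKO (1 of 6, Krt14, called higher). Lymphatic markers summed to 498 to 803 and to 1528 to 1602 TPM, nearly all of it Pdpn, the 1 called higher of 5 tested, with Ccl21a at 0. Smooth muscle markers summed to 4336 to 4493 and to 4832 to 5150 TPM, a sum that Tagln dominates (2696 to 3055 and 3701 to 3906 TPM, not called), while 4 of 9 tested were called lower. WT replicate 1 was the lowest WT library in the leukocyte, epithelial and endothelial sums. In such bulk samples, fewer cells of a type and less RNA per cell cannot be told apart.

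Per length, the 9 genes spanned a wide range and kept the same order in both groups. In WT, Smo was the most abundant at 47.4 ± 7.39 TPM (SD, n = 3). Boc at 11.7 ± 4.26, Gli3 at 9.92 ± 1.23, Gas1 at 7.64 ± 1.72 and Nr2f2 at 7.32 ± 0.613 TPM followed, and neighbours among these 4 overlapped in their ranges over libraries. Ptch1 at 3.74 ± 0.610 TPM lay below the range of Nr2f2 and overlapped with Gli2 at 2.64 ± 0.435 TPM. Gli1 at 0.753 ± 0.247 TPM and Hhip at 0.105 ± 0.0525 TPM were each below all WT libraries of the gene before them. In Pbrm1 cKO, Smo stood at 40.3 ± 4.34 TPM and Hhip at 0.381 ± 0.0259 TPM at the ends of the same order. There, Boc and Gli3, and Gas1 and Nr2f2, were the neighbours whose ranges overlapped. Changes of the 9 genes between groups were taken from normalized counts, since the scaling of TPM to the same sum is moved by other genes. The marker sums in TPM carry that limit.

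Of the 9 genes, all of which were tested, 2 rose (Ptch1, Hhip), 1 fell (Smo) and 6 were not called at an adjusted p of 0.05 in the DESeq2 comparison of Pbrm1 cKO with WT. Across all 17474 genes tested, 15.9% rose and 15.2% fell, 31.1% in either direction, so that the 3 of 9 called here were close to that background. Their median log2 fold change was -0.01, against -0.0007 over all genes tested. Groups did not overlap for 4 of the 9 (Ptch1, Hhip, Smo and Gli2), against 48.6% of all genes tested (24.0% higher, 24.6% lower). The leukocyte, epithelial and mesothelial marker sums also separated the groups, as did the lymphatic and smooth muscle sums that Pdpn and Tagln dominate, and their part in the values of the 9 genes was not tested.

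**Figure D1:**
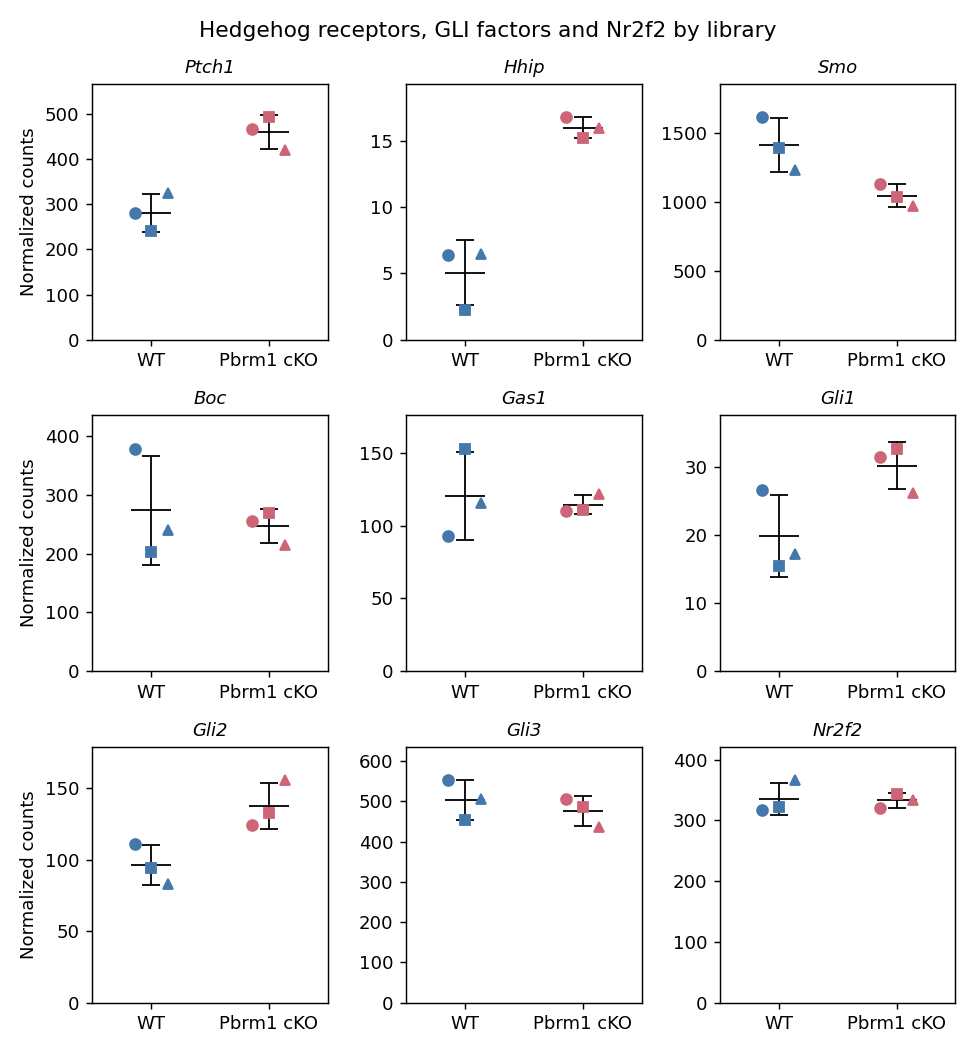
Normalized counts (vertical axes, from 0) of the 9 genes in the 3 WT libraries (blue) and the 3 Pbrm1 cKO libraries (red), with circles, squares and triangles for replicates 1, 2 and 3. Bars give the mean ± SD. Ptch1, Hhip, Smo and Gli2 have no overlap between groups, and Nr2f2 lies between 317.5 and 366.4 in all 6 libraries.

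Ptch1 (GRCm38 chr13:63508328-63573598, minus strand) encodes the receptor that holds SMO inactive. It stood at 280.0, 239.7 and 324.3 normalized counts in WT and at 466.6, 493.0 and 419.4 in Pbrm1 cKO. Every Pbrm1 cKO library was above every WT library. The log2 fold change was 0.71 ± 0.15 (SE, n = 3 per group, DESeq2 adjusted p = 3.86e-05), a 1.63-fold level. It kept its call under all 16 alternatives, at 0.52 to 0.89 on the log2 scale.

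Hhip (chr8:79965851-80058006, minus strand) encodes a membrane protein that binds and sequesters hedgehog ligands. Its raw counts were 6, 2 and 6 in WT and 17, 19 and 17 in Pbrm1 cKO, which are 6.4, 2.2 and 6.5 against 16.8, 15.2 and 16.0 normalized counts. The groups did not overlap, but all 6 libraries held few reads. The log2 fold change was 1.66 ± 0.67 (SE, n = 3 per group, DESeq2 adjusted p = 0.0437), with a 95% interval from 0.35 to 2.97. The call was lost when any 1 of the 6 libraries was left out (adjusted p 0.0559 to 0.177 in DESeq2), while the direction was kept.

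Smo (chr6:29735503-29761365, plus strand) encodes the transducer that PTCH1 inhibits. It stood at 1616, 1388 and 1229 normalized counts in WT and at 1132, 1032 and 968.3 in Pbrm1 cKO. WT replicate 1 was the highest of the 6 libraries, and the lowest WT library was above the highest Pbrm1 cKO library. The log2 fold change was -0.43 ± 0.13 (SE, n = 3 per group, DESeq2 adjusted p = 0.00388), a 0.74-fold level. The call was lost without Pbrm1 cKO replicate 3 (-0.38, adjusted p = 0.0554) and with size factors from the stromal markers (-0.25, adjusted p = 0.102). That scaling moved the median of all genes with a mean of 10 or more normalized counts by 0.18 on the log2 scale, and 7 of its 14 markers were themselves called.

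The coreceptors Boc and Gas1, which help present ligand to PTCH1, were not called. Boc (chr16:44485049-44558897, minus strand) stood at 379.4, 203.1 and 240.0 normalized counts in WT and at 256.5, 270.1 and 215.8 in Pbrm1 cKO. WT replicate 1 lay above all other libraries and the groups overlapped. The Boc log2 fold change was -0.15 ± 0.23 (SE, n = 3 per group, DESeq2 adjusted p = 0.699), and it was 0.16 without WT replicate 1. Gas1 (chr13:60174405-60177365, minus strand) stood at 93.0, 153.2 and 115.7 normalized counts in WT and at 110.5, 111.1 and 122.0 in Pbrm1 cKO. The WT libraries lay on both sides of those of Pbrm1 cKO, and the log2 fold change was -0.07 ± 0.23 (SE, n = 3 per group, DESeq2 adjusted p = 0.860). The 95% intervals ran from -0.60 to 0.30 for Boc and from -0.53 to 0.38 for Gas1.

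Among the GLI factors, none passed the threshold in the DESeq2 test, whereas Gli2 had an unadjusted p of 0.0164. Gli1 (chr10:127329882-127341974, minus strand), an activator and the most used readout of the pathway, stood at 26.7, 15.5 and 17.3 normalized counts in WT and at 31.6, 32.8 and 26.3 in Pbrm1 cKO. Both other WT libraries were lower than all of Pbrm1 cKO, but WT replicate 1 was above Pbrm1 cKO replicate 3. The Gli1 log2 fold change was 0.60 ± 0.42 (SE, n = 3 per group, DESeq2 adjusted p = 0.299), with a 95% interval from -0.22 to 1.43. Counts of 14 to 41 reads per library limited its precision. Arhgap9, on the opposite strand, shares 62 exon bases with Gli1 and was called higher at a log2 fold change of 1.82 (DESeq2 adjusted p = 4.97e-08). The counting used strand, and its part in the Gli1 value was not tested.

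Gli2 (chr1:118834132-119053619, minus strand), the main activator early in the response, stood at 111.2, 94.3 and 83.2 normalized counts in WT and at 124.3, 132.6 and 155.8 in Pbrm1 cKO. Every Pbrm1 cKO library was above every WT library. The Gli2 log2 fold change was 0.51 ± 0.21 (SE, n = 3 per group, DESeq2 adjusted p = 0.0523). It was called in 6 alternatives, among them edgeR's quasi-likelihood test (0.52, adjusted p = 0.0279) and the fit without WT replicate 1 (0.63, adjusted p = 0.0259). Gli3 (chr13:15463235-15730026, plus strand), the main source of the repressor form, stood at 552.6, 453.9 and 504.8 normalized counts in WT and at 506.1, 485.8 and 435.4 in Pbrm1 cKO. The groups overlapped, and the Gli3 log2 fold change was -0.08 ± 0.13 (SE, n = 3 per group, DESeq2 adjusted p = 0.708), with a 95% interval from -0.34 to 0.18.

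**Figure D2:**
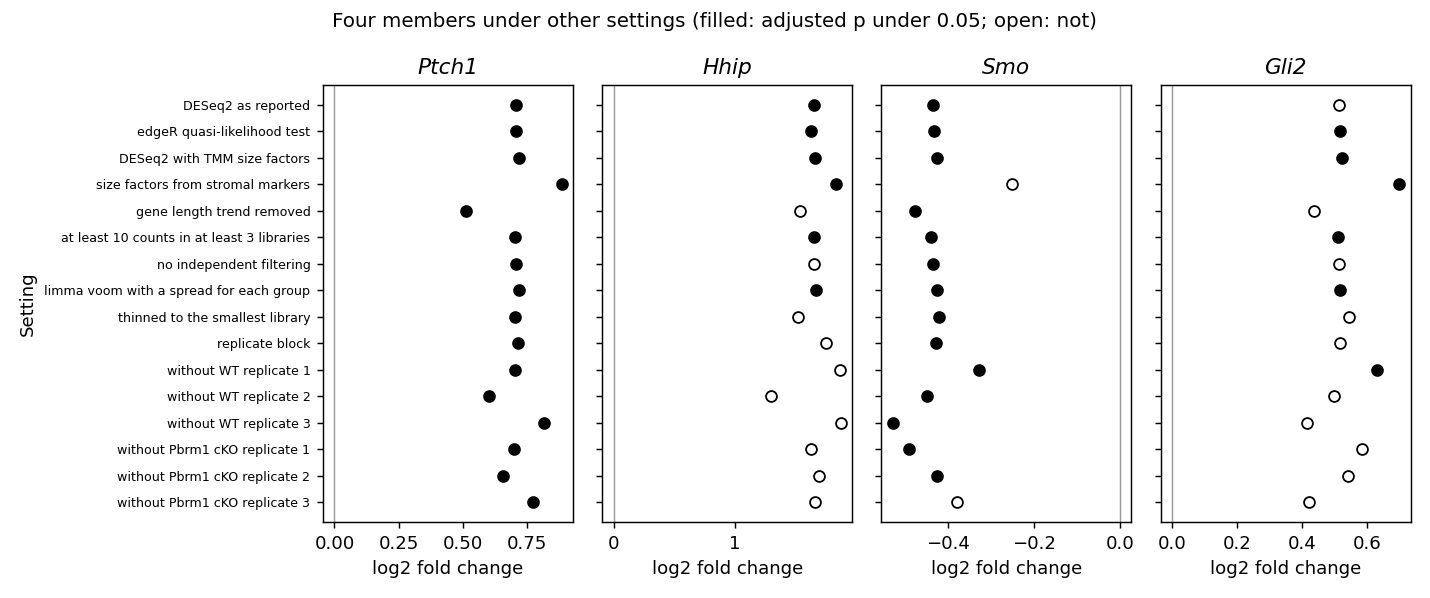
Log2 fold change (horizontal axes) of Ptch1, Hhip, Smo and Gli2 in the DESeq2 fit and under 15 other settings that changed the test, the scaling, the filter or the libraries (vertical axis). Filled points have an adjusted p under 0.05 and open points do not. Ptch1 is filled throughout, whereas Hhip is open whenever a library is left out.

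Nr2f2 (chr7:70351944-70366735, minus strand) stood at 317.5, 321.8 and 366.4 normalized counts in WT and at 320.6, 343.6 and 334.0 in Pbrm1 cKO. All 3 Pbrm1 cKO libraries lay within the range of WT. The log2 fold change was -0.01 ± 0.14 (SE, n = 3 per group, DESeq2 adjusted p = 0.967), with a 95% interval from -0.27 to 0.25 under these size factors. Under the 16 alternatives the Nr2f2 log2 fold change lay between -0.13 and 0.17 with no call. B130024G19Rik, a transcript on the opposite strand with 643 shared exon bases, held 15 to 30 counts per library and was not called (DESeq2 adjusted p = 0.939).

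The ratio of pairs of these genes within a library does not depend on the size factor. The Ptch1 to Smo ratio of length-scaled counts was 0.0687, 0.0684 and 0.105 in WT and 0.163, 0.189 and 0.172 in Pbrm1 cKO. It was higher in all 3 Pbrm1 cKO libraries than in any WT library, by 1.14 on the log2 scale. That separation, and with it the permutation p below, follows from those of Ptch1 and Smo and is no further result. The Gli1 to Gli3 ratio was 0.0928, 0.0657 and 0.0658 in WT and 0.120, 0.129 and 0.116 in Pbrm1 cKO, again without overlap, with a log2 difference of 0.72. The Hhip to Ptch1 ratio was 0.0358, 0.0145 and 0.0313 in WT and 0.0562, 0.0481 and 0.0594 in Pbrm1 cKO, a log2 difference of 1.10 without overlap. It was 0.70 without WT replicate 2, in which Hhip had 2 counts. The Gli1 to Gli2 ratio overlapped between the groups, with a log2 difference of 0.12. An exact two-sided permutation test over the libraries gave p = 0.1, the smallest possible with 3 against 3, for the first 3 ratios and p = 0.5 for the last. Of single genes tested, 48.6% did not overlap between the groups, and the share over gene pairs was not computed.

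**Figure D3:**
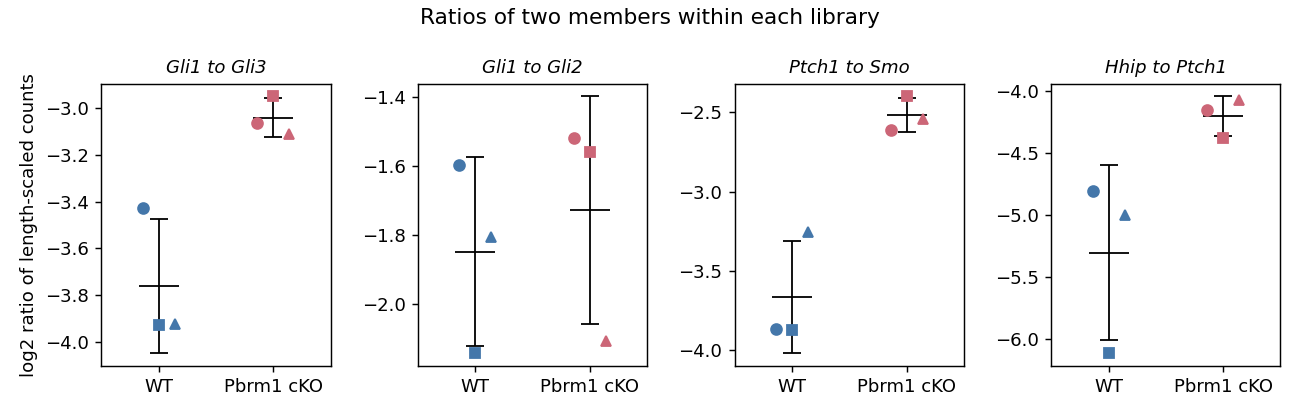
Log2 ratio of length-scaled counts (vertical axes) for 4 pairs of genes in each WT (blue) and Pbrm1 cKO (red) library, with circles, squares and triangles for replicates 1, 2 and 3 and bars for the mean ± SD. The Gli1 to Gli3, Ptch1 to Smo and Hhip to Ptch1 ratios do not overlap between groups, and Gli1 to Gli2 does.

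The other genes of the pathway were taken from lists by role, 75 genes in all, of which 74 had a count and 70 were tested. Of these 70, 14 rose and 10 fell, against 15.9% and 15.2% of all genes, and their median log2 fold change was 0.07.

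Ligands were scarce in these cells. For Ihh, the uterine ligand, 1, 20 and 14 reads were counted in the WT libraries and 1, 5 and 2 in those of Pbrm1 cKO. WT replicate 1 was at the level of the Pbrm1 cKO libraries, and it was also the WT library with the lowest epithelial marker sum, 217 against 326 and 338 TPM. The Pbrm1 cKO libraries held the highest epithelial sums, 410 to 422 TPM. Of 14 epithelial markers tested, 5 were called higher and 9 were not called, among them Epcam and Krt18. The Ihh log2 fold change was -2.45 ± 1.05 (SE, n = 3 per group, DESeq2 adjusted p = 0.0596) and was called without WT replicate 1 (-2.99, adjusted p = 0.00400). Over the 5 fits without a library that gave an adjusted p, it ran from -3.15 to -2.10 (adjusted p up to 0.208). The part of the epithelial content in this value was not tested. Dhh was counted 0, 4 and 4 times in the WT libraries and 1, 1 and 2 times in those of Pbrm1 cKO, and Shh had no count in any library, which allows up to 3 counts per library.

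Of the genes for release of the ligand, 1 of 5 tested was called, against 31.1% of all genes, and 1 other was called lower without WT replicate 1. Disp1, which exports lipid-bearing hedgehog proteins, stood at 102.6, 93.2 and 75.7 normalized counts in WT and at 177.6, 175.8 and 153.9 in Pbrm1 cKO. It rose by 0.90 ± 0.20 on the log2 scale (SE, n = 3 per group, DESeq2 adjusted p = 8.71e-05). None of the 4 other receptors and coreceptors tested was called by DESeq2. The coreceptor Cdon stood at 69.5, 66.6 and 76.7 normalized counts in WT and at 93.7, 70.3 and 60.1 in Pbrm1 cKO, with a log2 fold change of 0.07 ± 0.27 (SE, n = 3 per group, DESeq2 adjusted p = 0.883).

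Between SMO and the GLI proteins, 4 of 16 genes rose and 2 fell, against 15.9% and 15.2% of all genes tested. Sufu, which holds the GLI proteins inactive, stood at 169.9, 152.0 and 200.0 normalized counts in WT and at 276.2, 278.1 and 238.3 in Pbrm1 cKO, with a log2 fold change of 0.60 ± 0.17 (SE, n = 3 per group, DESeq2 adjusted p = 0.00243). Gpr161, a ciliary receptor that restrains the pathway through cyclic AMP, stood at 417.9, 342.9 and 367.5 in WT and at 254.5, 244.5 and 248.6 in Pbrm1 cKO, and its log2 fold change was -0.59 (DESeq2 adjusted p = 0.000219). Both inhibitors moved without overlap of the groups, Sufu up and Gpr161 down. Arrb2, an arrestin that also serves many other receptors, rose by 1.41 (DESeq2 adjusted p = 6.72e-20), and its Pbrm1 cKO libraries lay at 485.0 to 549.5 normalized counts against 166.7 to 208.6 in WT. The leukocyte marker sum also separated the groups, and its part in the Arrb2 value was not tested. Grk2, a kinase of activated SMO and other receptors, rose by 0.41 (DESeq2 adjusted p = 0.00126). Kif7, a ciliary kinesin that regulates the GLI proteins, had a log2 fold change of -0.24 ± 0.20 (SE, n = 3 per group, DESeq2 adjusted p = 0.389). The remaining calls, named after their values were seen, were Gsk3b at 0.39 and the protein kinase A subunit gene Prkaca at -0.29 (DESeq2 adjusted p = 0.0463). Prkaca lost its call in 5 of the 6 fits without a library, with the exception of that without WT replicate 3, and in 7 of the 10 other alternatives, among them stromal size factors (-0.10, adjusted p = 0.522).

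**Figure D4:**
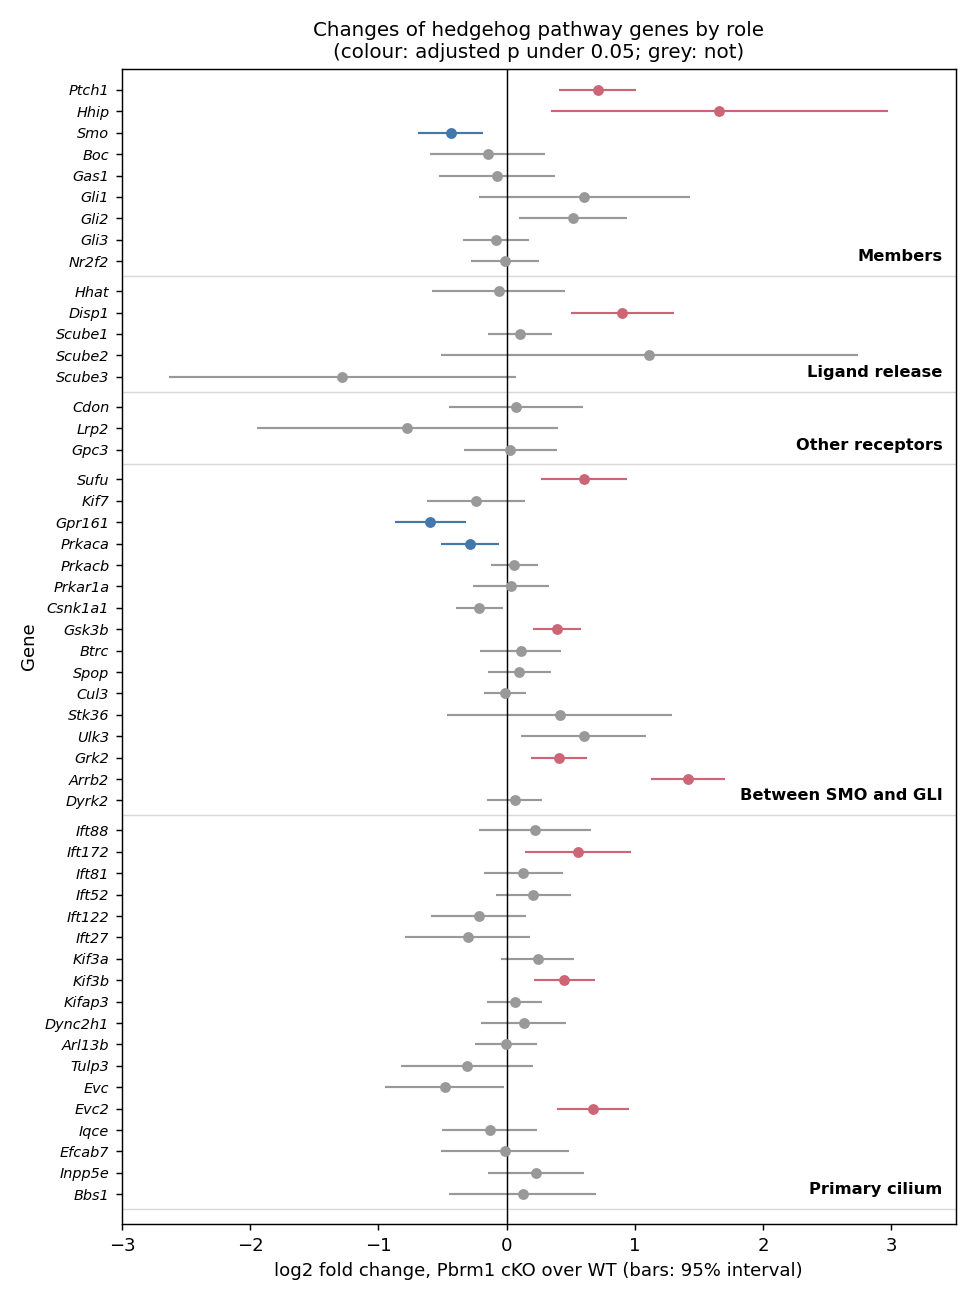
Log2 fold change of Pbrm1 cKO over WT (horizontal axis) with 95% intervals for the 9 genes (labelled members) and for other pathway genes by role (vertical axis). Colour marks an adjusted p under 0.05, with red for higher and blue for lower in Pbrm1 cKO, and grey marks the rest. Most genes between SMO and GLI and of the cilium are grey.

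The primary cilium is the organelle in which SMO and the GLI proteins meet. Of 18 cilium genes, 3 rose and 15 were not called, close to the 15.9% of all genes that rose, and 1 to 5 rose under the alternatives. Evc2, which encodes a protein that binds SMO at the base of the cilium, stood at 237.3, 256.4 and 290.8 normalized counts in WT and at 418.3, 445.9 and 388.4 in Pbrm1 cKO, with a log2 fold change of 0.68 (DESeq2 adjusted p = 2.48e-05). The kinesin gene Kif3b rose by 0.45 (DESeq2 adjusted p = 0.00134). Ift172, for intraflagellar transport, rose by 0.56 (DESeq2 adjusted p = 0.0292), but the call was lost without WT replicate 1 or 2 or Pbrm1 cKO replicate 1 or 2 (adjusted p 0.0823 to 0.163).

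Among 13 other genes known to respond to the GLI proteins, 2 rose and 2 fell, close to the 15.9% and 15.2% of all genes, and without a library 1 to 3 rose and 0 to 2 fell. Ccnd2, a cyclin of G1 phase, stood at 1015, 768.0 and 1363 normalized counts in WT and at 2052, 2183 and 1878 in Pbrm1 cKO, with a log2 fold change of 0.96 (DESeq2 adjusted p = 1.24e-06). Snai1, a repressor of epithelial genes, rose by 0.53 (DESeq2 adjusted p = 0.00573), and its call was lost without WT replicate 2 (0.39) or Pbrm1 cKO replicate 1 (0.46). The mesenchymal factor Osr1 stood at 71.6, 83.2 and 36.8 normalized counts in WT and at 29.6, 26.4 and 23.5 in Pbrm1 cKO. Its log2 fold change was -1.27 (DESeq2 adjusted p = 0.00372), and the call was lost without WT replicate 2 (-1.04, adjusted p = 0.0699). Bmp4, a secreted growth factor, had a log2 fold change of -0.56 (DESeq2 adjusted p = 0.0152), with the call kept without WT replicate 1 or Pbrm1 cKO replicate 1 and lost in the 4 other fits without a library (adjusted p 0.0604 to 0.0925). The median log2 fold change over the 13 genes was 0.24, and 9 of them, including the 4 called, did not overlap between the groups, against 48.6% of all genes tested.

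Both other NR2F genes, Nr2f1 and Nr2f6, were called, in opposite directions, against 31.1% of all genes tested called in either direction. Nr2f1 (COUP-TFI), its closest paralogue, stood at 6.4, 3.3 and 9.7 normalized counts in WT and at 18.7, 26.4 and 22.5 in Pbrm1 cKO, a log2 fold change of 1.80 ± 0.59 (SE, n = 3 per group, DESeq2 adjusted p = 0.0103). These are few reads, and the call was lost without WT replicate 2 or Pbrm1 cKO replicate 2 or 3 (adjusted p 0.0530 to 0.0990). Nr2f6 stood at 630.6, 563.8 and 529.7 normalized counts in WT and at 477.5, 413.9 and 412.8 in Pbrm1 cKO, a log2 fold change of -0.40 ± 0.13 (SE, n = 3 per group, DESeq2 adjusted p = 0.00906). That call was lost without Pbrm1 cKO replicate 2 or 3 (adjusted p 0.0793 to 0.0919) and with size factors from the stromal markers (-0.22, adjusted p = 0.177).

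Of 12 genes placed up- or downstream of IHH and NR2F2 in the uterus, 5 fell and 3 rose, against 15.2% and 15.9% of all genes tested. Hand2, which restrains stromal growth factor signals to the epithelium, stood at 965.2, 744.7 and 759.9 normalized counts in WT and at 420.3, 427.5 and 383.8 in Pbrm1 cKO, a 0.499-fold level (DESeq2 adjusted p = 1.95e-11). The decidual signals Bmp2 and Wnt4 had log2 fold changes of -1.09 (DESeq2 adjusted p = 3.31e-06) and -0.98 (DESeq2 adjusted p = 5.36e-08). Fst, which encodes follistatin, an inhibitor of activins, fell the most of the list at -1.40 (DESeq2 adjusted p = 3.79e-38). No WT library overlapped with Pbrm1 cKO for Hand2, Bmp2, Wnt4 or Fst, and all 4 kept their calls under every alternative. The remaining calls, named after their values were seen, were Hoxa10 at -0.56, Vegfa at 0.88, Arid1a at 0.52 and Egfr at 0.38, of which Egfr lost its call without Pbrm1 cKO replicate 1 (0.35, adjusted p = 0.0574) and with the gene length trend removed (0.22, adjusted p = 0.115). Pgr, which encodes the progesterone receptor and drove the Cre, stood at 8976, 6947 and 6512 normalized counts in WT and at 6848, 6554 and 6041 in Pbrm1 cKO. The groups overlapped for Pgr and its log2 fold change was -0.21 ± 0.13 (SE, n = 3 per group, DESeq2 adjusted p = 0.245), with a call without WT replicate 3 (-0.30, adjusted p = 0.0401). A test of whether Nr2f2 differed in its change from any of these genes was not run.

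**Figure D5:**
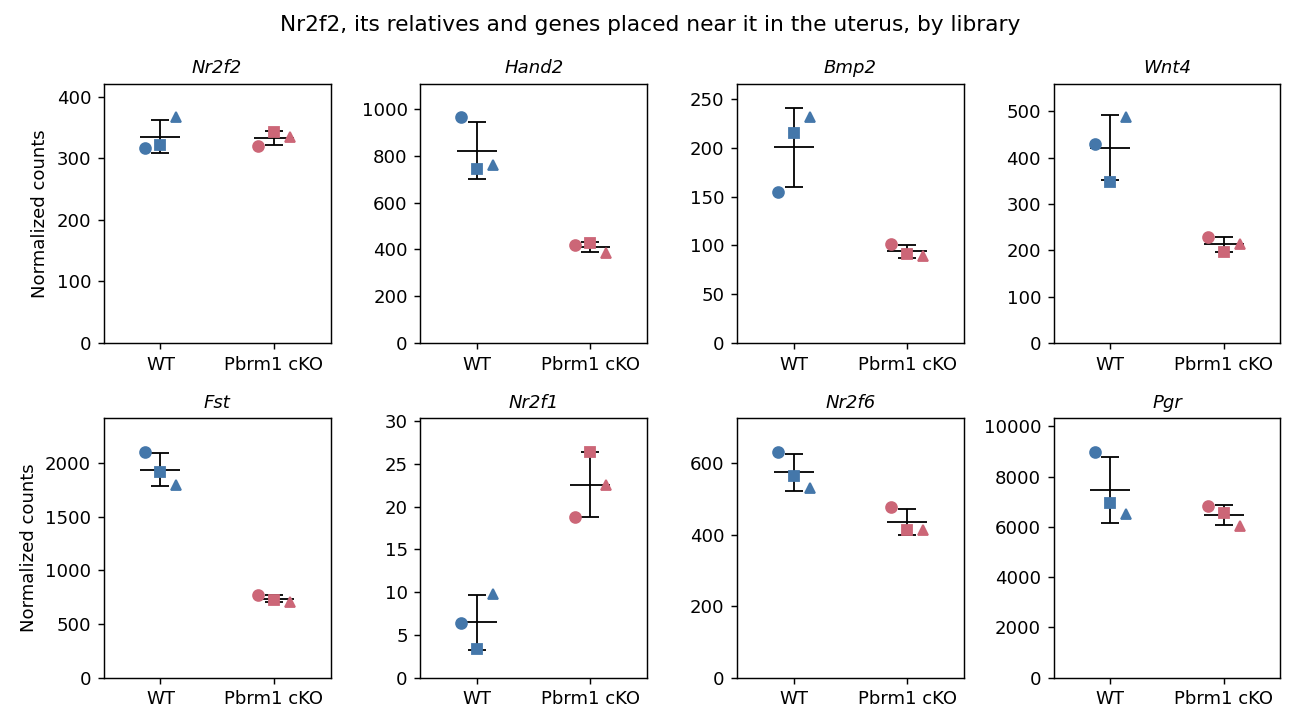
Normalized counts (vertical axes, from 0) of Nr2f2, Hand2, Bmp2, Wnt4, Fst, Nr2f1, Nr2f6 and Pgr in each WT (blue) and Pbrm1 cKO (red) library, with circles, squares and triangles for replicates 1, 2 and 3 and bars for the mean ± SD. The groups of Nr2f2 and Pgr overlap, and those of the other 6 genes do not.

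The genes most like Nr2f2 over the 6 libraries were ranked by Pearson's r of log2 normalized counts among 10398 protein-coding genes with a mean of at least 50. They were Cryzl1 (r = 0.998), Utp11 (r = 0.987), Aimp2 (r = 0.977), Rev1 (r = 0.975) and Gspt1 (r = 0.973). As with Nr2f2, all 5 were highest in WT replicate 3 and none was called. For Gli1 the same ranking gave Prpsap2, Hdac7, Ccn4, Bmper and Fosl2, with r from 0.994 to 0.996, each lower in WT replicates 2 and 3 than in the other libraries. Of these, only Hdac7 was called (0.40, DESeq2 adjusted p = 0.0304). Shared patterns over the libraries follow from the ranking itself. With 6 libraries these are descriptions, which share the size factors of the libraries.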

How the data were processed

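RNA-Seq was performed on 6 libraries of primary uterine stromal cells, 3 WT and 3 Pbrm1 cKO, grouped by their labels. Reads were single-end. The authors used cutadapt for trimming and HISAT2 for alignment, and counted reads over the exons of each gene with featureCounts 1.6.4 (GENCODE mouse release 18, GRCm38), on the reverse strand and leaving out reads that map to several places or genes. The deposited table holds raw counts per gene, not normalized. The labels describe total RNA with depletion and the study's methods poly(A) selection, so the RNA classes captured are not settled by these sources. Symbols matched 99.7% of 54232 identifiers.

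Counts were compared with DESeq2 1.42.0, the tool of the study (Wald test, median-of-ratios size factors, Benjamini-Hochberg adjustment over all genes tested, adjusted p under 0.05). Log2 fold changes are unshrunken and intervals are ± 1.96 SE. TPM was computed from the counts and the exon length in the table. The script was tested on simulated data. Alternatives were edgeR 4.0.16, limma 3.58.1 (voom), TMM factors, size factors from stromal markers, removal of the gene length trend, a filter of 10 counts in 3 libraries, no independent filtering, thinning, a replicate block, the study's cutoffs (over 1.5-fold, p under 0.01, adjusted p under 0.1) and leaving out each library. Each preparation pooled animals. The study calls its replicates biological, the labels do not say that each library is a separate pool, and p-values measure the spread between these libraries. The limit given with a count of 0 covers counting error only. No WT or Pbrm1 cKO pair of libraries agreed within sampling noise. The median squared difference of a pair, relative to that noise, was 4.40 to 9.73 in WT and 1.57 to 2.80 in Pbrm1 cKO. WT libraries thus differed more from each other, whereas the DESeq2 fit used a common dispersion per gene for both groups.

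The genes and lists were chosen with earlier results of these data known. Genes named beyond the 9 were Ihh, Sufu, Kif7, Cdon, Nr2f1, Nr2f6, Hand2 and Pgr, and in each list up to 4 called genes with the largest change and a mean of at least 10 normalized counts. Another gene of this rule is not reported here.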

Additional observations from a re-analysis of the deposited data

How the results depend on the processing

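Ptch1 kept its call under all 16 alternatives (0.52 to 0.89), and Gli1 was called under none (0.45 to 0.88, adjusted p 0.105 to 0.554). The other 7 of the 9 genes depended on a setting in call or sign. Smo was not called with stromal size factors (-0.25) or by the study's cutoffs (-0.43), and leaving out libraries gave -0.53 to -0.33. Hhip was not called with the length trend removed (1.54), without independent filtering (1.66), thinned (1.52), with the replicate block (1.75) or by the study's cutoffs (1.66), and leaving out libraries gave 1.30 to 1.88. Gli2 was called with edgeR (0.52), TMM (0.52), stromal size factors (0.70), the filter (0.51) and voom (0.52), and leaving out libraries gave 0.42 to 0.63. With stromal size factors the sign turned for Boc (0.035), Gas1 (0.11), Gli3 (0.10) and Nr2f2 (0.17), none of them called. It also turned for Gas1 when thinned (0.0017), for Nr2f2 with TMM (0.00027) and for Cdon with the length trend removed (-0.032). Leaving out libraries gave -0.33 to 0.16 for Boc, -0.23 to 0.13 for Gas1, -0.049 to 0.055 for Nr2f2, -0.12 to 0.21 for Cdon and -0.026 to 0.31 for the Gli1 to Gli2 ratio. Pgr was called with the length trend removed (-0.32, adjusted p = 0.0292). Bmp4 was not called with stromal size factors (-0.38) nor Ift172 with the length trend removed (0.48). The cause of these changes was not tested.

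Of the 9 genes, 0 fell with stromal size factors or by the study's cutoffs (0 or 1 without a library). Of them, 1 rose with the length trend removed, without filtering, thinned, with the block or by the study's cutoffs, 1 to 2 without a library, and 3 with edgeR, TMM, stromal size factors, the filter or voom. Over all genes, 1571 fell and 4362 rose with stromal size factors, 1452 fell and 1665 rose by the study's cutoffs, and 1806 to 2648 fell and 1928 to 2915 rose without a library, against 2658 and 2774. Of the other pathway genes, 6 fell and 7 rose by the study's cutoffs, and 7 to 12 fell and 11 to 16 rose without a library. No pairing of the libraries by replicate number was seen. Deviations of same-numbered libraries correlated at 0.11, -0.05 and 0.003, and not every library correlated best with its own number. With 3 libraries per group, this check cannot exclude a pairing. With the number as a block, 1828 genes fell and 2175 rose of 14713 tested, Ptch1 and Smo kept their calls, and Hhip, Prkaca, Ift172, Bmp4 and Nr2f1 lost theirs. Of 25 called genes outside the 9, 17 kept their call without any 1 library and 12 kept it under all 16 alternatives. These counts include the deleted gene Pbrm1, which kept its call throughout. Grk2, Gsk3b, Prkaca, Kif3b, Ift172, Snai1, Bmp4, Nr2f6, Hoxa10, Arid1a and Egfr did not pass the study's cutoffs. Hhip, Ihh, Gli1 and Nr2f1 had 1 to 41 counts per library.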
